A study of Bos taurus with 13 samples.

Results

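Newborn testes of 4 bull calves whose dams received a mixture of inorganic and organic selenium (Mix) were set against testes of 4 calves whose dams received organic selenium alone (OSe). These 8 arrays, 1 per calf, were chosen by their titles out of 13 in the series, and the other 5 came from calves of dams given inorganic selenium (ISe). The dams were Angus cross cows, 24 in all and 8 per form, with free access to a vitamin and mineral mix that held 35 ppm of selenium. Supplementation began 4 months before breeding and lasted through pregnancy, and the testes were taken within 2 days of birth. In the Mix group 50% of the selenium came from sodium selenite and the rest from Sel-Plex, a selenium yeast; in the OSe group all of it came from Sel-Plex, and in the ISe group all of it from sodium selenite. All 3 groups thus ate selenium at 1 stated content, no group without added selenium is among these samples, and each calf received its selenium through its dam. All 26773 probe sets of an Affymetrix array were compared, of which 18550 carry exactly 1 gene symbol and stand for 18087 genes. Values are the authors' log2 expression values, so that a difference of 1 is a 2-fold difference, and changes are given as Mix minus OSe with their standard error (SE) from a limma fit to all 13 arrays.

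Selenium acts in the body mainly as selenocysteine, an amino acid built into a small family of selenoproteins that includes glutathione peroxidases, thioredoxin reductases and the thyroid hormone deiodinases. Selenite is reduced and enters selenocysteine synthesis as selenide. Selenium yeast supplies mostly selenomethionine, which can also take the place of methionine in any protein before its selenium is released. The newborn testis holds gonocytes and early spermatogonia enclosed with Sertoli cells in cords, peritubular myoid cells around the cords, and Leydig cells, vessels and matrix between them. GPX4, a selenoprotein, is needed for sperm maturation, which lies well after this age.

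The 8 arrays carried the defining genes of testis. INSL3, a hormone that Leydig cells make for descent of the testis, averaged 13.50 ± 0.20 in Mix and 13.38 ± 0.36 in OSe (SD, n = 4 each), and AMH, made by Sertoli cells against the Müllerian ducts, averaged 12.39 ± 0.24 and 12.51 ± 0.27 in Mix and OSe. The germ cell helicase DDX4 averaged 9.11 ± 0.41 in Mix and 8.59 ± 0.55 in OSe. FOXL2, a transcription factor of the ovary, averaged 6.29 ± 0.14 and 6.31 ± 0.11 in the same groups, near the lower quartile of all values, and ALB of liver and GFAP of brain averaged 6.81 ± 0.36 and 7.13 ± 0.15 in Mix, against 6.62 ± 0.39 and 6.99 ± 0.07 in OSe. The labels give no batch.

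No probe set passed the test between Mix and OSe. Over all probe sets, the excess of weaker differences lower in Mix depended on the array of OSe animal 2. Among bright probe sets most weaker differences stayed lower in Mix without that calf. In limma, 0 of 26773 probe sets (0%) reached an adjusted p of 0.05, the lowest adjusted p being 0.291 for RNF141. An unadjusted p under 0.05 was found for 2283 probe sets (8.53%) with 721 (2.69%) higher and 1562 (5.83%) lower in Mix. An ordinary linear model without moderation gave 0 at the adjusted and 2148 at the unadjusted threshold. The change was below 0 at 54.7% of probe sets and at 54.1% of genes. The 4 Mix and the 4 OSe values did not overlap at 410 probe sets higher (1.53%) and 726 lower (2.71%) in Mix. These shares are the background for every count of genes below: over the 18087 genes, each represented by its brightest probe set, they were 2.69% higher and 5.82% lower at an unadjusted p under 0.05, and 1.61% and 2.81% without overlap. Because no gene passed, each difference named below is a measured value that is not established over all probe sets. Every gene named has an adjusted p of 0.581 or more, except RNF141.

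The median value on the array of OSe animal 2 was 7.74, where the other 12 medians ran between 7.61 and 7.65. Its values lay above those of the other 12 arrays by a median of 0.11. The offset was 0.14, 0.11 and 0.094 for dim, middle and bright probe sets, which were ranked by mean level and split into 3 equal sets. This array held the highest of all 13 values at 24.4% of probe sets, against 3.22% to 9.41% for the other arrays. Without OSe animal 2, 826 probe sets were higher and 818 lower in Mix at an unadjusted p under 0.05. Centring each array on its median gave 993 higher and 1333 lower, and quantile normalization 1045 and 1154. The split of 31.6% higher and 68.4% lower in the deposited values thus became 50.2% and 49.8% without that calf, 42.7% and 57.3% after centring, and 47.5% and 52.5% after quantile normalization. The direction also followed brightness. Without OSe animal 2, dim probe sets were mostly higher in Mix, 421 against 223 lower, and bright ones mostly lower, 304 against 99 higher. After quantile normalization of all 13 arrays the same counts were 335 higher and 326 lower for dim probe sets, and 383 lower and 299 higher for bright ones.

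**Figure D1:**
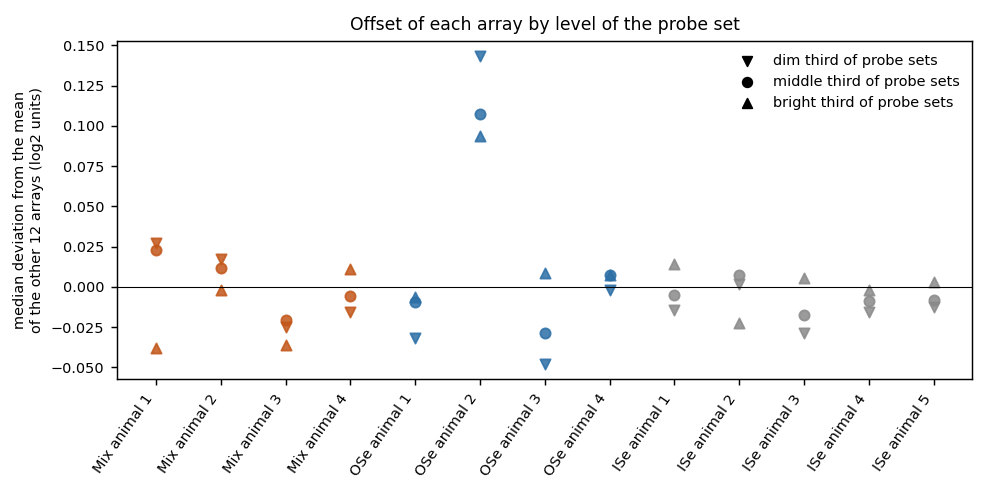
Median deviation of each array from the mean of the other 12 arrays (y axis, log2 units) for the 13 arrays (x axis: Mix, OSe, then ISe calves), by brightness of the probe set (downward triangles dim, circles middle, upward triangles bright). OSe animal 2 sits at 0.14, 0.11 and 0.09, and every other array lies between -0.05 and 0.03.

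Among genes lower in Mix, RNF141, which encodes a RING finger protein, came first by p. It measured 8.79, 8.78, 9.41 and 9.27 in Mix calves, against 9.93, 9.83, 10.16 and 10.20 in OSe calves. All 4 Mix values lay below all 4 OSe values, and Mix animals 1 and 2 were lowest. The change was -0.97 ± 0.15 (SE), a 1.96-fold lower level in Mix, with a 95% interval of -1.29 to -0.64 (limma adjusted p = 0.291). An exact two-sided permutation test over the 70 splits of 8 calves gave p = 0.0286, the smallest it can give for 4 against 4. Any gene without overlap gives this value, and RNF141 was picked by p from these same calves, so the test adds no separate support. The change ran from -1.08 to -0.87 when each of the 8 calves was left out in turn, and it was -0.92 after quantile normalization. The ISe calves averaged 9.88 ± 0.16 (SD, n = 5), so that Mix minus ISe was -0.81 ± 0.14 and OSe minus ISe 0.15 ± 0.14; these contrasts share arrays with Mix minus OSe.

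Next by p on the lower side, ACOX3, a peroxisomal acyl-CoA oxidase for branched chains, measured 8.39, 8.13, 8.20 and 8.10 in Mix calves, against 8.73, 8.75, 8.64 and 8.49 in OSe calves, a change of -0.45 ± 0.08. HSD17B7, a reductase of cholesterol synthesis, measured 8.34, 7.96, 8.67 and 8.23 in Mix calves, against 8.83, 9.22, 9.21 and 8.84 in OSe calves, a change of -0.73 ± 0.15. In both genes the highest Mix calf stayed below the lowest OSe calf. SGPL1, the lyase that ends sphingosine-1-phosphate signalling, measured 9.58, 9.24, 9.64 and 9.48 in Mix calves, against 9.998, 9.96, 9.89 and 10.01 in OSe calves and SLC52A3, a riboflavin transporter, measured 10.54, 10.08, 10.31 and 9.97 in Mix calves, against 10.63, 10.81, 10.64 and 10.89 in OSe calves. Their changes were -0.48 ± 0.11 and -0.52 ± 0.12, with the OSe calves close together and the Mix calves more spread. ENPP5, of the nucleotide pyrophosphatase family, was at -0.50 ± 0.11, the phosphoinositide phosphatase MTM1 at -0.35 ± 0.08, and SPIN2, of the spindlin family, at -0.56 ± 0.13. The microRNA locus MIR374B was at -0.55 ± 0.13; its probe set does not measure the mature microRNA, since the cRNA was made from oligo(dT)-primed cDNA. All 12 genes named first on this side had no overlap between the groups, as a rule by smallest p would favour, and 11 of them were brighter than the median probe set. The ISe mean lay between the Mix and OSe means for all 12, nearer to OSe for 10 and nearer to Mix for 2, ENPP5 and MTM1. Picking genes by smallest p for Mix minus OSe favours such a position, and its share over all genes was not computed.

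Among genes with a symbol the largest difference was that of BOLA-DQA1, the alpha chain of a cattle class II histocompatibility molecule, which presents peptides to helper T cells. It measured 8.58, 7.99, 7.38 and 7.84 in Mix calves, against 10.54, 10.08, 10.08 and 9.17 in OSe calves. The groups did not overlap, and the change of -2.02 ± 0.41 is 4.05-fold lower in Mix. The beta chain BOLA-DQB1 measured 9.84, 9.58, 9.84 and 9.93 in Mix calves, against 10.38, 11.44, 11.35 and 10.06 in OSe calves, a change of -1.01 ± 0.40 that was -0.80 without OSe animal 2. OSe animals 2 and 3 were high for the beta chain, and OSe animals 1 and 4 were nearer to the Mix calves, though all 4 OSe values lay above all 4 Mix values. Both genes belong to a family of near-identical and highly variable genes, and a probe set may read several copies, or some alleles less well than others. The second probe set of BOLA-DQA1, dim with a mean of 4.39, differed the other way at 0.36 ± 0.21. In ISe calves BOLA-DQA1 averaged 9.26 ± 0.81 (SD, n = 5) and spanned 8.29 to 10.06.

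IL33, a cytokine of the interleukin-1 family that is stored in the nucleus of barrier and stromal cells, measured 7.90, 7.66, 7.83 and 7.82 in Mix calves, against 9.06, 9.56, 8.65 and 9.08 in OSe calves. The 4 Mix calves lay within a narrow band and every OSe calf was higher. The change was -1.28 ± 0.30, 2.44-fold lower in Mix, and it stayed between -1.43 and -1.13 with any 1 of the 8 calves left out. In ISe calves IL33 averaged 8.604 ± 0.69, and their values spanned 7.75 to 9.43. ZNF804A, a zinc finger protein, measured 8.20, 7.45, 7.85 and 7.15 in Mix calves, against 8.57, 9.58, 8.28 and 8.23 in OSe calves, with OSe animal 2 far above the rest, and its change of -1.001 ± 0.31 was -0.70 without that calf.

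**Figure D2:**
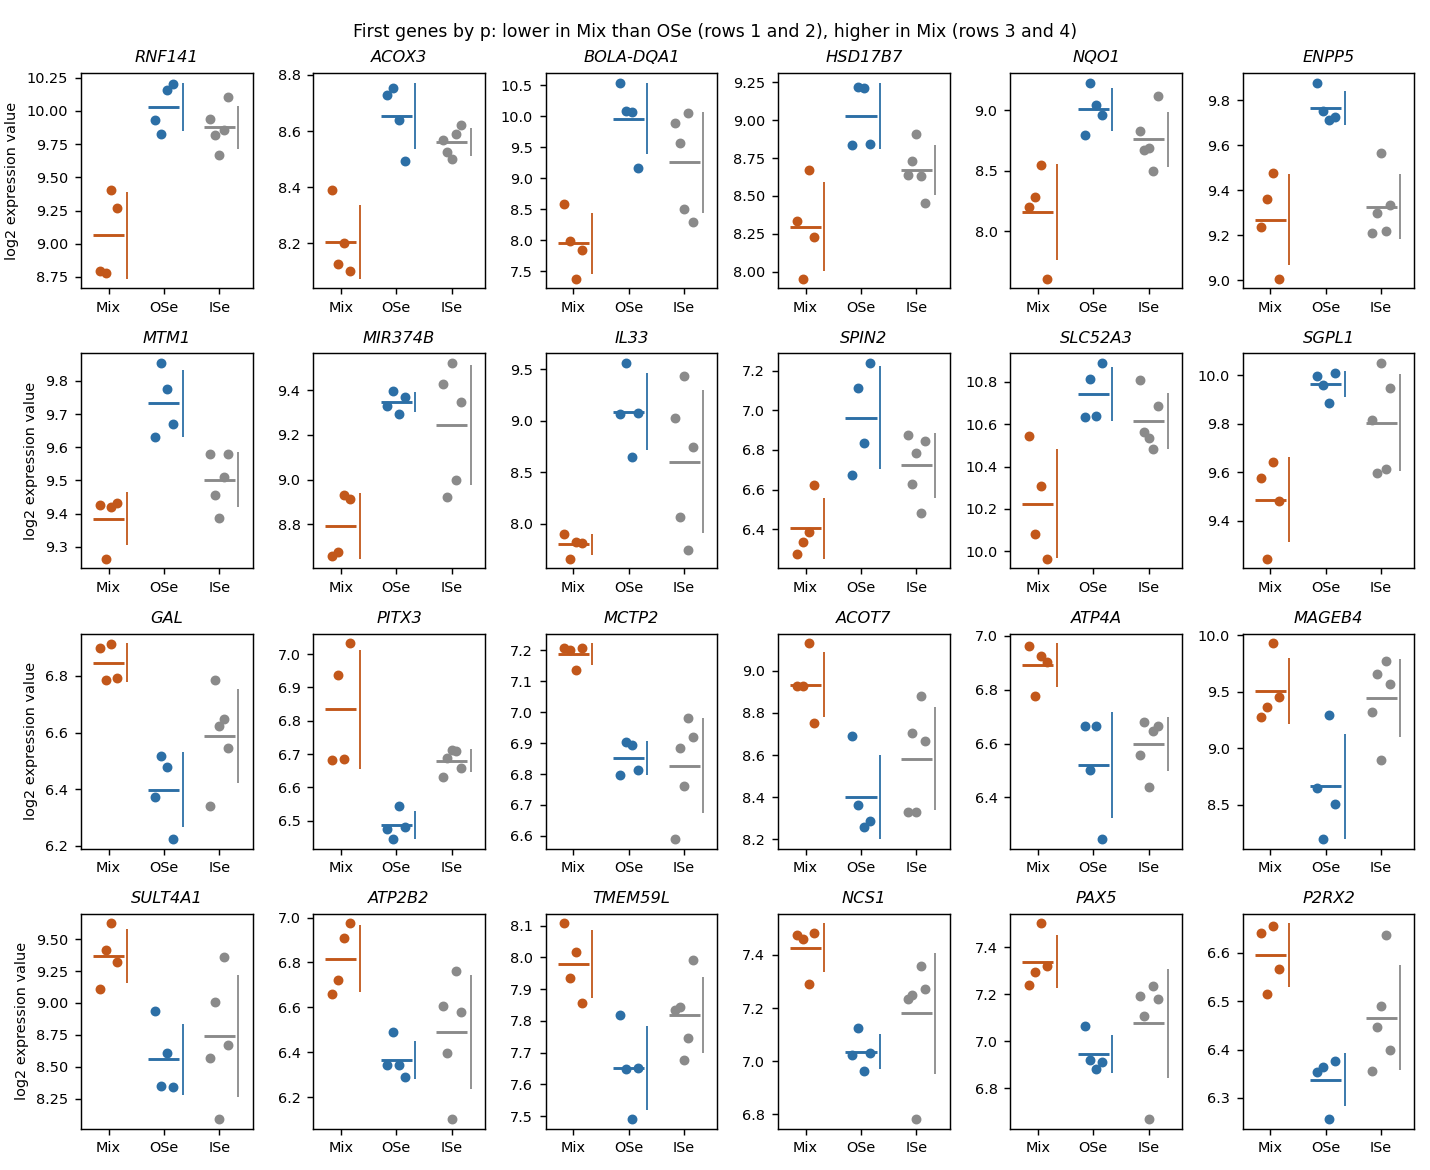
Log2 expression values (y axis, a scale per gene) of the 12 genes first by p on the lower side (rows 1 and 2) and the 12 on the higher side (rows 3 and 4) in Mix, OSe and ISe calves (x axis). Each point is a calf, horizontal lines are group means and vertical lines are 1 SD on either side. RNF141 lies between 8.78 and 9.41 in Mix and between 9.83 and 10.20 in OSe.

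The list of fatty acid oxidation genes held more members below an unadjusted p of 0.05 on the lower side than any of the other 27 lists described. Of 35 measured members, 28 were below 0 (54.1% of all genes were) and 12 had an unadjusted p under 0.05 on the lower side, against 0 on the higher side. The share on the lower side was 5.82% over all genes and 7.23% over bright probe sets, and this list is bright, with a median level of 9.04. None passed the adjusted test. The median change was -0.13, against -0.015 for all genes. Sorted by compartment after their values were seen, the peroxisomal members had a median of -0.25, with 12 of 13 below 0 and 7 at an unadjusted p under 0.05. The mitochondrial ones had a median of -0.12, with 13 of 15 below 0 and 4 at that p. Genes of fatty acid activation and regulation showed no clear direction, with 3 of 7 below 0, 1 at that p on the lower side and a median of 0.027. Without OSe animal 2 the peroxisomal, mitochondrial and activation medians were -0.15, -0.067 and 0.088, and after quantile normalization -0.20, -0.074 and 0.072.

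Peroxisomes shorten very long and branched fatty acids before mitochondria finish the work. SCP2, whose long form is the thiolase for branched chains, measured 9.15, 8.64, 8.98 and 8.85 in Mix calves, against 9.52, 9.49, 9.57 and 9.24 in OSe calves, a change of -0.55 ± 0.15. CROT, which moves the shortened chains onto carnitine, measured 10.37, 10.13, 10.27 and 9.94 in Mix calves, against 10.89, 10.55, 10.52 and 10.81 in OSe calves, a change of -0.51 ± 0.14. Neither gene had overlapping groups, and Mix animals 2 and 4 were the lowest calves for both. The bifunctional enzyme HSD17B4 was at -0.25 ± 0.09, the isomerase ECI2 at -0.25 ± 0.10, the membrane protein PEX11A of peroxisome division at -0.17 ± 0.07, and ABCD3, which imports acyl-CoAs, at -0.23 ± 0.10, or -0.15 without OSe animal 2. PEX5, the import receptor for peroxisomal enzymes, was the 1 peroxisomal member above 0, at 0.18 ± 0.13. In mitochondria, the thiolase subunit HADHB was at -0.28 ± 0.12, the thiolase ACAA2 at -0.27 ± 0.11, the carnitine transferase CPT2 at -0.23 ± 0.10, or -0.13 without Mix animal 2, and the medium-chain dehydrogenase ACADM at -0.18 ± 0.08. PPARA, a receptor that induces many of these genes, was at -0.19 ± 0.09, or -0.11 without OSe animal 3.

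The list's mean deviation from the level over all 13 calves was -0.0033, -0.088, -0.10 and -0.11 in Mix animals 1 to 4, against -0.019, 0.15, 0.062 and 0.0024 in OSe animals 1 to 4. Mix animals 2, 3 and 4 were below every OSe calf, and Mix animal 1 was not. OSe animal 2, the calf with the array offset, was the highest. Without it the median change was -0.091, and 3 members in place of 12 had an unadjusted p under 0.05 on the lower side, where the share over all probe sets was 3.06%. The count was 6 without Mix animal 2, 6 without Mix animal 4, 8 without Mix animal 3 or OSe animal 3, 5 after quantile normalization, where the share over all probe sets was 4.31%, and 7 with the animal number as a block. The median stayed below 0 in each of these.

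**Figure D3:**
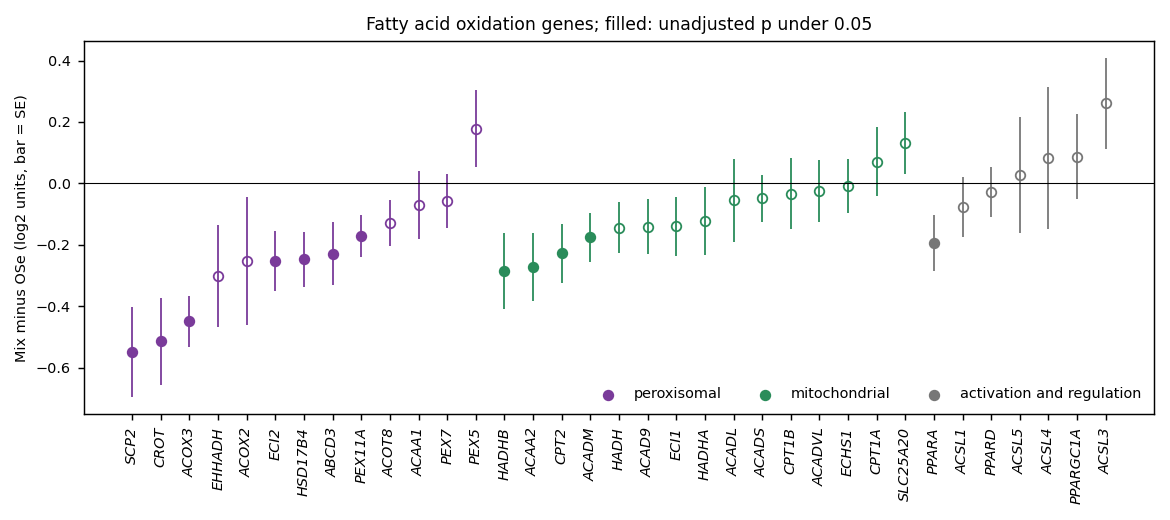
Change between Mix and OSe (y axis, Mix minus OSe in log2 units, bars are SE) for the 35 measured genes of fatty acid oxidation (x axis), coloured by compartment. Filled points have an unadjusted p under 0.05; 12 of 13 peroxisomal genes lie below 0, led by SCP2 at -0.55.

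Lipid synthesis was less uniform. ELOVL6, which lengthens palmitate, measured 9.36, 9.04, 9.18 and 9.50 in Mix calves, against 9.59, 9.71, 9.94 and 9.75 in OSe calves, with no overlap and a change of -0.48 ± 0.12. GPAM and DGAT1, which start and end triglyceride assembly, were at -0.24 ± 0.10 and -0.19 ± 0.08. Over the list, 10 of 21 members were above 0, and the median of -0.096 was 0.051 without OSe animal 3 and -0.043 without Mix animal 3. Cholesterol synthesis and uptake rested on that same calf. The mean deviation of this list was 0.023, -0.22, 0.0036 and -0.15 in Mix animals 1 to 4, against -0.11, 0.034, 0.97 and -0.097 in OSe animals 1 to 4. OSe animal 3 stood far above all others. The median change of -0.30 over 17 measured members was 0.017 without it. NSDHL and TM7SF2, both enzymes of the pathway, measured 10.35 and 8.55 in OSe animal 3, and their changes of -0.47 ± 0.24 and -0.45 ± 0.25 were -0.13 and -0.11 without it. HSD17B7 differed in this, at -0.67 without OSe animal 3, and so did the kinase PMVK, at -0.30 ± 0.13 with all calves and -0.30 without that one.

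Redox genes were mostly lower in Mix, as bright probe sets were, led by a few. NQO1, a quinone reductase induced through the transcription factor NRF2, measured 8.20, 8.28, 8.54 and 7.61 in Mix calves, against 8.80, 9.23, 9.05 and 8.96 in OSe calves. No Mix calf reached the OSe range, Mix animal 4 was lowest, and the change of -0.85 ± 0.18 is 1.8-fold lower. CBR1, a carbonyl reductase, measured 6.86, 6.56, 6.93 and 7.08 in Mix calves, against 7.34, 7.49, 7.26 and 7.11 in OSe calves, a change of -0.44 ± 0.14 without overlap. The iron-binding protein PIR was at -0.37 ± 0.12 and the epoxide hydrolase EPHX1 at -0.38 ± 0.17. EPHX1 was -0.22 without Mix animal 4. Over the 23 measured NRF2 pathway genes, 15 were below 0 with a median of -0.076, and 4 had an unadjusted p under 0.05 on the lower side and 0 on the higher. This list is bright, with a median level of 8.90, and 34.8% of its members lay above 0, against 37.1% of bright probe sets. Lower in Mix at that p were 17.4% of the list and 7.23% of bright probe sets. NRF2 itself, NFE2L2, was at -0.11 ± 0.09 and its inhibitor KEAP1 at -0.11 ± 0.09. The other targets HMOX1, GCLM and SRXN1 were at 0.44 ± 0.45, -0.16 ± 0.10 and 0.019 ± 0.17. The median was -0.024 without OSe animal 2 and -0.032 without Mix animal 3.

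Of 45 measured glutathione and antioxidant genes, 35 were below 0, with a median of -0.10, and 4 had an unadjusted p under 0.05, all lower in Mix. This list is bright too, with a median level of 9.90, and 22.2% of its members lay above 0, against 37.1% of bright probe sets. Lower in Mix at that p were 8.89% of the list and 7.23% of bright probe sets. The median change was -0.053 after quantile normalization and -0.063 without OSe animal 2. The glutathione transferase GSTA4 measured 10.76, 10.83, 10.66 and 10.76 in Mix calves, against 10.89, 11.02, 11.25 and 11.01 in OSe calves, and the glutathione synthetase GSS measured 7.86, 7.95, 7.85 and 7.90 in Mix calves, against 7.98, 8.14, 8.15 and 8.11 in OSe calves. Neither gene had overlapping groups, and the changes were -0.29 ± 0.09 and -0.21 ± 0.07. SOD3, the extracellular superoxide dismutase, measured 11.04, 10.55, 10.85 and 10.77 in Mix calves, against 11.73, 11.30, 10.82 and 11.63 in OSe calves, a change of -0.56 ± 0.24 in which OSe animal 3 fell among the Mix calves. GSTA2 measured 6.79, 6.95, 6.395 and 6.86 in Mix calves, against 6.66, 8.02, 8.12 and 7.95 in OSe calves, with OSe animal 1 at the level of the Mix calves and the other OSe calves about 1 unit higher. Its change was -0.94 ± 0.41. The GSTA genes are close paralogs, and their probe sets may share signal. For GSS, GSTA2 and GSTA4 the ISe means were 7.82, 6.85 and 10.79, against Mix means of 7.89, 6.75 and 10.75 and OSe means of 8.10, 7.69 and 11.04. For SOD3 and NQO1 the ISe means of 11.46 and 8.76 lay nearer to the OSe means of 11.37 and 9.01 than to the Mix means of 10.81 and 8.16. Catalase, CAT, was at -0.22 ± 0.11, and the list's mean deviation per calf was -0.11 to -0.026 in Mix, against -0.034 to 0.16 in OSe.

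No selenoprotein gene passed the test. No member of 25 reached even an unadjusted p under 0.05 in either direction, 19 were below 0, and the median was -0.080, or -0.035 without OSe animal 2 and -0.047 without Mix animal 3. TXNRD1, the cytosolic thioredoxin reductase, came first by p, at 9.18, 9.15, 9.10 and 9.21 in Mix calves, against 9.22, 9.396, 9.43 and 9.21 in OSe calves. The groups met at 9.21 and 9.21, and the change was -0.15 ± 0.07. SELENON of the endoplasmic reticulum was at -0.19 ± 0.11, the plasma glutathione peroxidase GPX3 at -0.13 ± 0.09 and SELENOV at -0.12 ± 0.10. SELENOV and GPX3 were -0.055 and -0.087 without OSe animal 2. The abundant GPX1 was at 0.021 ± 0.09, with a 95% interval of -0.17 to 0.21. GPX4 was at 0.074 ± 0.12, with an interval of -0.18 to 0.32, the selenium carrier SELENOP at -0.036 ± 0.12 with -0.30 to 0.23, and SELENOW at 0.052 ± 0.08 with -0.13 to 0.23. Genes that make selenocysteine and carry selenium had 12 of 22 members above 0 and none at an unadjusted p under 0.05. Among them the selenium-binding protein SELENBP1 was at -0.39 ± 0.20 and the kinase PSTK, which prepares the selenocysteine tRNA, at -0.20 ± 0.12.

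Germ line genes lay higher in Mix, and 1 calf in that group stood out. In the list of RNA-binding and piRNA pathway genes, 27 of 31 measured members were above 0 (45.9% of all genes were), with a median of 0.33, and 6 had an unadjusted p under 0.05, against 2.69% of all genes. The piRNA pathway silences transposons in the germ line. PIWIL2, 1 of its Argonaute proteins, measured 8.96, 8.65, 9.49 and 9.10 in Mix calves, against 8.94, 8.29, 8.48 and 8.37 in OSe calves, a change of 0.53 ± 0.23. MAEL, a partner of that pathway, measured 9.91, 9.74, 10.61 and 9.89 in Mix calves, against 9.95, 8.92, 9.61 and 9.24 in OSe calves, a change of 0.61 ± 0.28. Mix animal 3 was the highest calf and OSe animal 2 the lowest for both, and the groups overlapped. The RNA-binding proteins ELAVL2, CPEB1 and DND1 were at 0.52 ± 0.21, 0.50 ± 0.22 and 0.47 ± 0.19, and the co-chaperone FKBP6 of meiosis and piRNA synthesis at 0.74 ± 0.34. Among these genes only DND1 had no overlap, its Mix range of 8.73 to 9.44 lying just above the OSe range of 8.26 to 8.72, and its change was 0.31 without Mix animal 3.

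The mean deviation of this list was 0.039, -0.015, 0.58 and 0.10 in Mix animals 1 to 4, against 0.18, -0.38, -0.0086 and -0.35 in OSe animals 1 to 4. Mix animal 3 was highest, OSe animals 2 and 4 were lowest, and OSe animal 1 lay above the other 3 Mix calves. The median change was 0.20 without Mix animal 3, 0.25 without OSe animal 2, 0.24 without OSe animal 4 and 0.44 without OSe animal 1. The count at an unadjusted p under 0.05 was 0, 0, 0 and 14 without each of those calves, 2 without Mix animal 4, 3 without OSe animal 3, 4 without Mix animal 1 and 0 with the animal number as a block. In bulk tissue, more germ cells and more RNA per germ cell cannot be told apart.

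Other germ line lists pointed the same way with smaller changes. Among genes of spermatogonial stem cells and gonocytes, 26 of 37 were above 0, with a median of 0.15 and 3 at an unadjusted p under 0.05, all higher in Mix. At that p there were 5 higher and 1 lower without Mix animal 1, and 2 higher and 2 lower without OSe animal 3. After quantile normalization 5 were higher and 0 lower. ZBTB16, a transcription factor of undifferentiated spermatogonia, measured 10.50, 10.97, 10.85 and 11.14 in Mix calves, against 10.39, 10.61, 10.11 and 10.40 in OSe calves, a change of 0.48 ± 0.15. FOXO1, which marks gonocytes and stem spermatogonia in mice, measured 10.41, 10.69, 10.64 and 10.54 in Mix calves, against 10.38, 10.36, 10.33 and 10.18 in OSe calves, a change of 0.26 ± 0.12 without overlap. GFRA1, the receptor for the niche factor GDNF, was at 0.52 ± 0.19 and BCL6B at 0.36 ± 0.17, or 0.18 without Mix animal 2. Meiotic and postmeiotic genes had 35 of 42 members above 0, a median of 0.14 and 4 at an unadjusted p under 0.05. TEX12, of the synaptonemal complex, measured 7.80, 7.73, 8.59 and 8.15 in Mix calves, against 7.64, 7.32, 7.75 and 6.93 in OSe calves, a change of 0.66 ± 0.23. The cohesins RAD21L1 and SMC1B were at 0.44 ± 0.18 and 0.42 ± 0.19, or 0.24 and 0.27 without Mix animal 3. The count for this list at that p was 1 without Mix animal 3, without OSe animal 2 or without OSe animal 4, and 7 without OSe animal 1. MAGEB4, a germ cell antigen of the MAGE family, measured 9.28, 9.37, 9.93 and 9.45 in Mix calves, against 8.65, 8.20, 9.29 and 8.50 in OSe calves. Only OSe animal 3 reached the Mix range, and the change was 0.84 ± 0.23. Mix minus ISe was 0.061 ± 0.22 and OSe minus ISe -0.78 ± 0.22 for MAGEB4. Its second probe set was at 0.40 ± 0.26.

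Genes that write and erase DNA methylation split. DNMT3L, the germ line cofactor of DNA methyltransferases, was dim and measured 6.50, 6.65, 6.69 and 6.53 in Mix calves, against 6.36, 6.34, 6.24 and 6.42 in OSe calves, a change of 0.25 ± 0.09 without overlap. TET1, an enzyme that oxidises methylcytosine, measured 10.01, 9.42, 9.87 and 9.49 in Mix calves, against 10.04, 10.68, 10.24 and 10.09 in OSe calves, a change of -0.57 ± 0.20, also without overlap and with Mix animals 2 and 4 lowest. TET2 was at -0.20 ± 0.09, or -0.13 without OSe animal 2. Of 19 measured members 14 were below 0, with a median of -0.059 that was -0.092 without OSe animal 4. After quantile normalization 9 were above 0 and the median was -0.010.

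**Figure D4:**
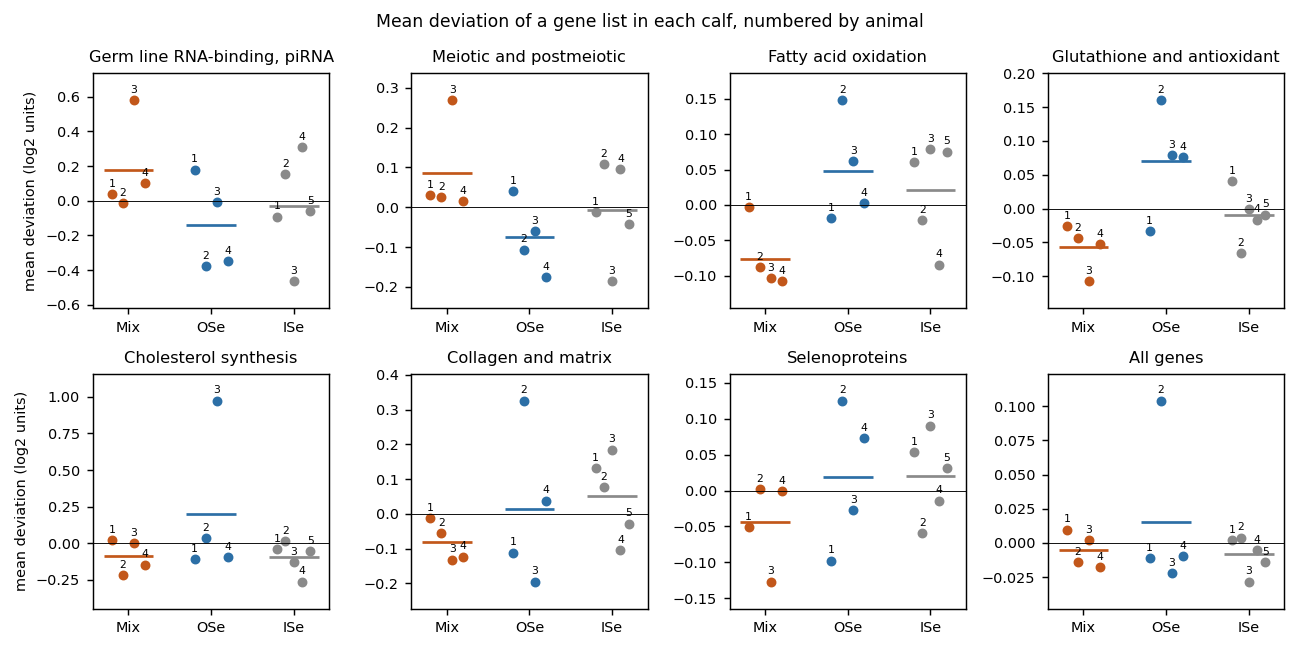
Mean deviation of a gene list from its level over all 13 calves (y axis, log2 units, a scale per panel) in Mix, OSe and ISe calves (x axis). Each point is a calf with its animal number, and lines are group means. Mix animal 3 is highest for germ line RNA-binding genes at 0.58, OSe animal 3 for cholesterol synthesis at 0.97, and OSe animal 2 for matrix genes at 0.33.

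The list of Sertoli cell genes, measured in bulk testis, differed in single members more than as a whole. Sertoli cell genes had 25 of 33 members below 0 and a median of -0.068, with 3 higher and 3 lower in Mix at an unadjusted p under 0.05. The lower count was 6 without Mix animal 1 and 0 without OSe animal 4, and each count was 1 without Mix animal 4. The median was -0.10 without Mix animal 2, -0.11 without OSe animal 3 and -0.045 without OSe animal 2. SOX9, the transcription factor that sets Sertoli cell fate, measured 8.51, 8.36, 8.61 and 8.58 in Mix calves, against 9.06, 8.61, 8.65 and 9.05 in OSe calves, a change of -0.33 ± 0.13 in which OSe animals 1 and 4 were high and OSe animal 2 lay level with the highest Mix calf. Transferrin, TF, measured 9.26, 8.64, 9.32 and 9.13 in Mix calves, against 9.49, 9.83, 9.35 and 9.72 in OSe calves, a change of -0.51 ± 0.23, and the groups did not overlap. FST, follistatin, which binds activin, measured 7.16, 7.15, 7.53 and 7.14 in Mix calves, against 7.10, 6.75, 7.002 and 6.996 in OSe calves, a change of 0.28 ± 0.11 that was 0.19 without Mix animal 3. The activin subunit INHBA was at -0.28 ± 0.13, or -0.18 without Mix animal 4. The tight junction protein CLDN1 measured 10.84, 11.79, 10.85 and 12.42 in Mix calves, against 10.78, 11.01, 10.71 and 9.80 in OSe calves, with Mix animals 2 and 4 high and a change of 0.90 ± 0.36, or 0.58 without Mix animal 4. The cholesterol exporter ABCA1 was at 0.55 ± 0.25, or 0.31 without Mix animal 2.

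Leydig cell and steroid synthesis genes had 22 of 32 members below 0, with a median of -0.11 that was -0.022 without OSe animal 3. HSD3B1, an enzyme on the way to testosterone, measured 10.29, 10.06, 9.99 and 9.72 in Mix calves, against 9.95, 10.32, 10.82 and 10.44 in OSe calves, a change of -0.37 ± 0.16, or -0.22 without OSe animal 3. HSD17B11, a steroid and lipid droplet dehydrogenase, was at -0.53 ± 0.22. CYP17A1 spread widely within both groups, at 11.44, 11.31, 10.50 and 12.17 in Mix calves, against 10.38, 11.19, 12.77 and 11.97 in OSe calves. Its change of -0.22 ± 0.43 has a 95% interval of -1.14 to 0.70, and differences within that range could not be told from 0 with these calves. CYP11A1, which cuts the side chain of cholesterol, was at 0.27 ± 0.38, with an interval of -0.54 to 1.09, and the receptor LHCGR at -0.017 ± 0.18, with -0.41 to 0.38.

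Vessel, muscle and matrix genes were low in Mix mainly against OSe animal 2. Collagen and matrix genes had 39 of 52 members below 0 and a median of -0.059, which turned to 0.014 without that calf. It was -0.12 without OSe animal 3, -0.097 without OSe animal 1 and -0.037 without Mix animal 3. Medians of peritubular myoid and endothelial genes, -0.10 and -0.11, were -0.0037 and -0.043 without it, and the endothelial median was -0.037 without Mix animal 3. The mean deviation of the matrix list was -0.13 to -0.012 in Mix, against 0.33 in OSe animal 2 and -0.19 to 0.038 in the other OSe calves. The direction of single members did not always rest on it. The small leucine-rich proteoglycan ASPN measured 6.88, 7.31, 7.13 and 6.81 in Mix calves, against 7.32, 7.83, 8.19 and 7.23 in OSe calves, a change of -0.61 ± 0.22, and -0.55 without OSe animal 2. FMOD, of the same family, was at -0.49 ± 0.20, or -0.31 without Mix animal 4. LOXL1, which cross-links elastic fibres, ran the other way at 9.26, 8.93, 9.52 and 8.99 in Mix calves, against 8.71, 8.94, 8.79 and 8.66 in OSe calves, a change of 0.40 ± 0.13 in which OSe animal 2 lay within the Mix range. Genes of duct epithelium had 14 of 20 members above 0, with KRT18, a keratin, at 0.59 ± 0.21, or 0.33 without Mix animal 4, which held 9.06 against at most 8.25 in the other 7 calves. The duct markers PAX8 and WFDC2 averaged 6.77 and 6.56 in Mix, against 6.71 and 6.38 in OSe.

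The genes first by p on the higher side were dimmer than those on the lower side. Their median level was 7.03, against 9.10 for the 12 lower genes, and 8 of 12 lay below the median probe set at 7.64. All but MAGEB4 had no overlap between the groups. The neuropeptide galanin, GAL, measured 6.90, 6.78, 6.91 and 6.79 in Mix calves, against 6.37, 6.52, 6.48 and 6.23 in OSe calves, a change of 0.45 ± 0.10. The homeobox gene PITX3, known from dopamine neurons and lens, measured 6.68, 6.94, 6.69 and 7.03 in Mix calves, against 6.47, 6.45, 6.54 and 6.48 in OSe calves, a change of 0.35 ± 0.08. The membrane protein MCTP2 measured 7.21, 7.20, 7.14 and 7.21 in Mix calves, against 6.80, 6.90, 6.89 and 6.81 in OSe calves, a change of 0.34 ± 0.08. All 3 lay below the median probe set, and for PITX3 the Mix calves spanned as much as the change itself. The brighter SULT4A1, a sulfotransferase known from brain, measured 9.11, 9.42, 9.62 and 9.32 in Mix calves, against 8.94, 8.35, 8.604 and 8.34 in OSe calves, a change of 0.81 ± 0.23, 1.75-fold higher in Mix. ACOT7, an acyl-CoA thioesterase, measured 8.93, 8.93, 9.13 and 8.75 in Mix calves, against 8.69, 8.36, 8.26 and 8.29 in OSe calves, a change of 0.53 ± 0.14. In both of these OSe animal 1 was the OSe calf nearest to Mix. The gastric proton pump subunit ATP4A was at 0.37 ± 0.10, the calcium pump ATP2B2 at 0.45 ± 0.13, the calcium sensor NCS1 at 0.39 ± 0.11, the ATP-gated channel P2RX2 at 0.26 ± 0.08, TMEM59L at 0.33 ± 0.09 and the B cell transcription factor PAX5 at 0.39 ± 0.12. A second, dimmer probe set of ATP4A was at 0.20 ± 0.17. ATP4A, ATP2B2 and P2RX2, with mean levels of 6.66, 6.55 and 6.47, also lay below ALB. The ISe mean lay between the others for 11 of 12, all but MCTP2, a position that picking by p favours. It was nearer to OSe for 9 and nearer to Mix for 3, PITX3, MAGEB4 and TMEM59L. Dim probe sets as a whole ran higher in Mix without OSe animal 2, as given with the array offsets; the part of this in the low-level genes was not tested.

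**Figure D5:**
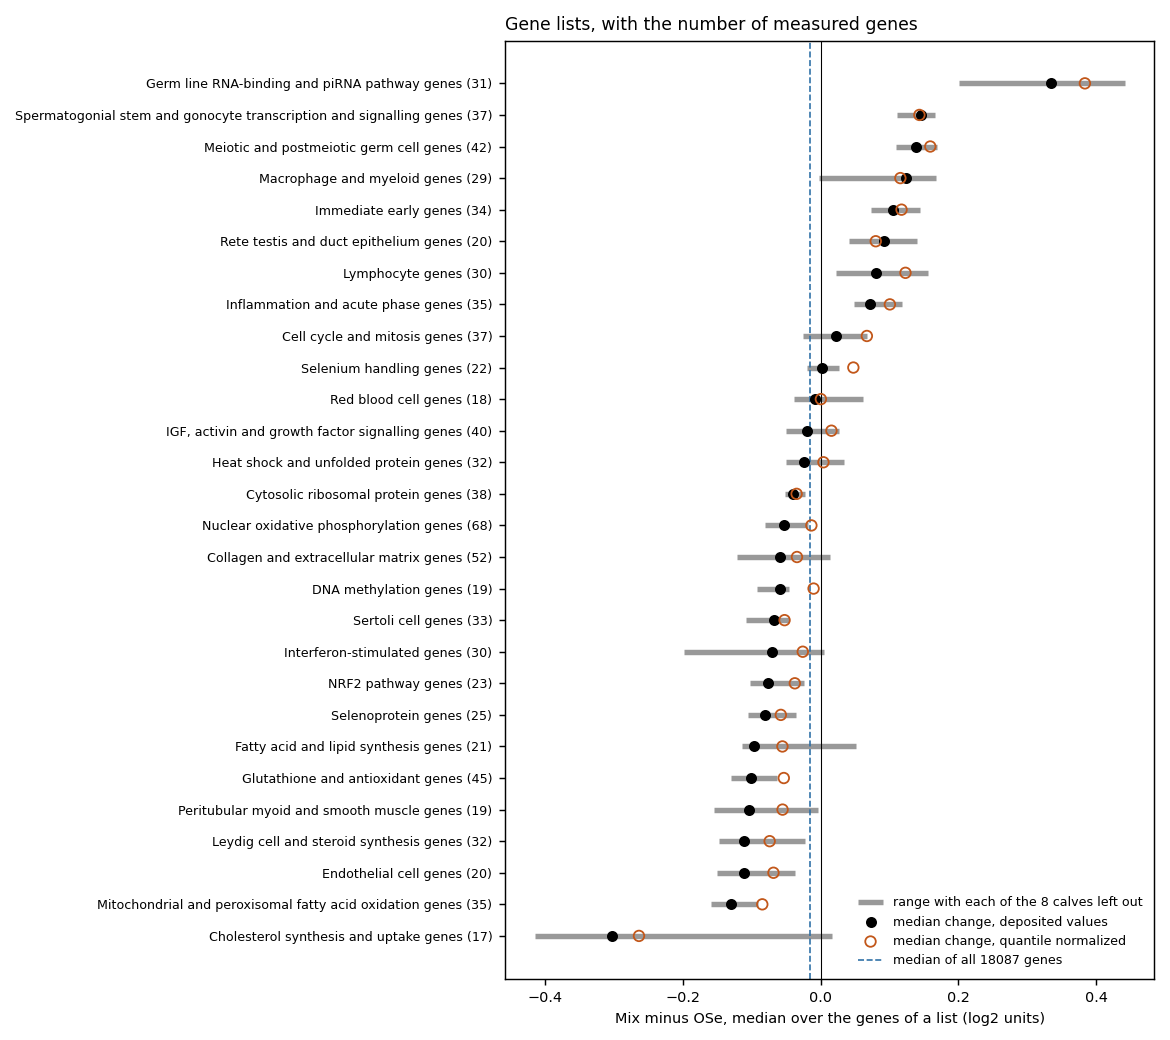
Median change between Mix and OSe (x axis, Mix minus OSe in log2 units) of 28 gene lists (y axis, with the number of measured genes). Black points are the deposited values, grey bars the range with each of the 8 calves left out in turn, open circles the quantile-normalized values and the dashed line the median of all genes. Germ line RNA-binding genes lie highest at 0.33 and cholesterol synthesis genes lowest at -0.30, with a bar that crosses 0.

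Immune cells left a mixed picture. Macrophage and myeloid genes had 19 of 29 members above 0 and a median of 0.12, which was -0.0029 without OSe animal 4 and 0.052 without Mix animal 3. Of its members 5 were higher and 1 lower in Mix at an unadjusted p under 0.05, and 0 were higher without Mix animal 3, 1 without OSe animal 3, and 2 without Mix animal 4, OSe animal 2 or OSe animal 4. CD163, a scavenger receptor of macrophages, measured 7.18, 7.28, 7.65 and 7.73 in Mix calves, against 6.79, 7.11, 7.26 and 6.69 in OSe calves, a change of 0.49 ± 0.19 with 1 calf of each group in the other's range, while the general macrophage marker CD68 was at 0.056 ± 0.26. The granulocyte proteins S100A8, S100A9 and S100A12 were at 0.56 ± 0.25, 0.27 ± 0.11 and 0.73 ± 0.32, and S100A8 and S100A12 at 0.36 and 0.49 without Mix animal 3. S100A12 measured 7.93 and 7.82 in Mix animals 3 and 4, against 6.10 to 6.83 in OSe calves, and Mix animals 1 and 2 lay within that range. The red blood cell gene HBB was also high in Mix animals 3 and 4, at 9.31 and 9.14, and in OSe animal 2, at 9.71, against 7.57 to 7.98 in the other calves of both groups; whether blood content has a part in the S100 values was not tested. The monocyte chemokine receptor CCR2 ran lower, at 6.06, 5.98, 6.06 and 6.02 in Mix calves, against 6.68, 6.24, 6.60 and 6.35 in OSe calves, a change of -0.44 ± 0.15 without overlap. Its probe set was dim, with a mean level of 6.20, under the 25th percentile of mean level at 6.26. Among 30 lymphocyte genes 24 were above 0 with a median of 0.081. Without Mix animal 1 the count was 18 and the median 0.023, and without OSe animal 4 they were 16 and 0.025. The median was 0.16 without Mix animal 2, 0.14 without OSe animal 2 and 0.14 without OSe animal 3. The B cell receptor subunit CD79A was at 0.28 ± 0.10, or 0.19 without Mix animal 1, the natural killer receptor NCR1 at 0.29 ± 0.11, and the T cell receptor subunit CD3E at -0.050 ± 0.19.

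Inflammation and immediate early genes had 24 of 35 and 26 of 34 members above 0 and medians of 0.072 and 0.11, and the inflammation median was 0.12 without OSe animal 2. At an unadjusted p under 0.05 the inflammation list held 1 gene higher and 1 lower in Mix. TNFAIP3, a brake on NF-κB signalling, measured 8.77, 8.86, 8.72 and 8.80 in Mix calves, against 8.55, 8.62, 8.63 and 8.43 in OSe calves, a change of 0.23 ± 0.08 without overlap. The early growth response factor EGR4 was at 0.58 ± 0.28, JUNB at 0.21 ± 0.11 and JUND at -0.23 ± 0.10. For the immediate early list 0 genes were higher and 1 lower at an unadjusted p under 0.05. The mean deviation of interferon-stimulated genes per calf was -0.31 to 0.24 in Mix, against -0.44 to 0.29 in OSe, and none of 30 reached an unadjusted p under 0.05 in either direction.

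Lists of basic cell functions had medians between -0.052 and 0.023, against -0.015 for all genes. Nuclear genes of oxidative phosphorylation had 50 of 68 members below 0 and a median of -0.052, or -0.013 after quantile normalization, -0.018 without OSe animal 3 and -0.080 without OSe animal 1, with UQCR10 of complex III at -0.21 ± 0.09 and NDUFS1 of complex I at -0.17 ± 0.07. This list is bright, with a median level of 9.93, and 26.5% of its members lay above 0, against 37.1% of bright probe sets. Lower in Mix at an unadjusted p under 0.05 were 2.94% of the list and 7.23% of bright probe sets. Cytosolic ribosomal protein genes had a median of -0.040 over 38 measured members, or -0.023 without OSe animal 2, and none at an unadjusted p under 0.05. Cell cycle genes had 22 of 37 members above 0 and a median of 0.023, which ran between -0.026 and 0.068 with 1 calf left out, lowest without OSe animal 4 and highest without OSe animal 2. The replication helicase subunit MCM4 was at 0.28 ± 0.12 without overlap, and its second probe set at 0.08 ± 0.12. Red blood cell genes had a median of -0.0075, or 0.00050 after quantile normalization and -0.039 to 0.062 with 1 calf left out.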

How the data were processed

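Testis RNA of 13 calves was labelled as biotinylated cRNA from oligo(dT)-primed cDNA and hybridised to 1 array per calf, per the labels' protocols. The deposited values are log2 expression values made by the authors. GCOS 1.2 and Partek 6.4 were named without their roles, per the submitters' processing notes. Background correction, probe summary and normalization are not given in the sources used here. All values span 2.07 to 14.6, a range that fits a log2 scale and not a linear one. Whether arrays were centred is unknown. Scanner files were not used here, so the number of arrays limits the precision and signal over background was not computed.

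Arrays were grouped by title. limma 3.58.1 under R 4.3.3 fitted a mean per group to all 13 arrays (13.28 total degrees of freedom), and Mix minus OSe was tested two-sided with Benjamini-Hochberg adjustment over 26773 probe sets. The p-values measure the spread between these calves. Of 26773 probe sets, 595 carry several symbols and 7628 none, and these were tested but not named. A single gene identifier was given for 18166, and 17996 of these matched RefSeq's ARS-UCD2.0 gene table, with 0 symbols changed. Gene lists, 28 in all, were described by counts and medians, each gene by its brightest probe set. Named genes were the 12 first by unadjusted p in each direction, since none passed, above the 25th percentile of mean level (6.26) and with a single, non-placeholder symbol, the 5 largest changes, up to 4 members of a list by p, and marker genes; ABCD3, ACAA2, ACADM, CAT, CPT2, ECI2, FKBP6, GCLM, GPX1, GPX4, HADHB, HMOX1, IGF1, IGF2, INHBA, KEAP1, MAEL, NFE2L2, PEX11A, PEX5, PPARA, S100A8, S100A12, SELENOP, SELENOW, SRXN1 and TF fall outside this rule and were named after their values were seen. The members, lists and rules were chosen with earlier results of these data known. Alternatives were centring, quantile normalization, a level filter, other moderation, the 8 arrays alone, a replicate block and each calf left out. Figures were drawn with matplotlib 3.10.9.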

Additional observations from a re-analysis of the deposited data

Results flagged for a closer look

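In 11 of 110 groups of 4 values checked, 1 calf lay far from the other 3 of its group by Dixon's test. Chance gives about 1 in 20 for independent groups. The groups checked share calves and include genes picked by p, so the count cannot be measured against that rate. Among the arrays, the median of OSe animal 2 was 7.74, against 7.62 to 7.64 in the other OSe calves. For mean deviations of gene lists, Mix animal 3 stood apart for meiotic and postmeiotic genes at 0.27, against 0.015 to 0.030 in the other Mix calves. The same calf was at -0.11, against 0.024 to 0.035 for lipid synthesis genes. Sertoli cell genes were at 0.058, against -0.063 to -0.050, in Mix animal 2 and the other Mix calves. In OSe animal 2 they were at 0.12, against -0.0059 to 0.016 in the other OSe calves, and inflammation genes at 0.14, against -0.051 to -0.033. Cholesterol genes in OSe animal 3 were at 0.97, against -0.11 to 0.034 in the other OSe calves. Interferon-stimulated genes in OSe animal 4 were at -0.44, against 0.17 to 0.29. Among single genes, MCTP2 was at 7.14, against 7.20 to 7.21 and NCS1 at 7.29, against 7.46 to 7.48, each in Mix animal 3 and the other Mix calves. MTM1 was at 9.26, against 9.42 to 9.43, in Mix animal 2 and the other Mix calves.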

How the results depend on the processing

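The count of probe sets past an adjusted p of 0.05 in limma was 0 in all 7 other fits and 0 to 1 with 1 calf left out. The 1 call came without OSe animal 3, for a probe set without a gene symbol (change 1.86, adjusted p = 0.0123). Leaving out 1 calf gave 818 to 1763 probe sets lower in Mix at an unadjusted p under 0.05, the lowest without OSe animal 2, against 1562 with all calves. Groups without overlap numbered 598 to 994 higher and 842 to 1457 lower in Mix with 1 calf left out, since 3 values overlap less easily than 4. The fit to the 8 Mix and OSe arrays alone gave 2040 at an unadjusted p under 0.05.

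The list medians were compared over 364 pairs of list and setting, and 3 moved by more than the spread between calves. Quantile normalization put DNA methylation genes, at -0.059 as deposited, at -0.010 and selenium handling genes, at 0.0024 as deposited, at 0.048. Lipid synthesis genes ran from -0.11 to 0.051 with 1 calf left out, the highest without OSe animal 3. The cause was not tested. The spread between calves includes outlying calves, so a small count does not mean stable medians. For cholesterol genes that spread was 0.38, and the move from -0.30 to 0.017 without OSe animal 3 was not counted. The matrix median, -0.059 with all calves and 0.014 without OSe animal 2, also changed sign without being counted.

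Animal numbers are shared by the groups, but same-numbered Mix and OSe calves did not deviate together (correlations from -0.010 to 0.089 over probe sets, 0 of 4 Mix calves closest to their own number). Pairs with different numbers ran from -0.25 to 0.29. A small shared effect need not show in these correlations, and whether the number stands for any pairing was not tested. With the number as a replicate block, 0 probe sets passed (lowest adjusted p = 0.678) and 1943 had an unadjusted p under 0.05.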

Other observations

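Heat shock and growth factor genes held a few single differences that no list shared. HSPA1A, an inducible heat shock protein, measured 10.02, 9.61, 10.32 and 9.49 in Mix calves, against 10.46, 10.04, 10.85 and 10.45 in OSe calves, with OSe animal 2 below Mix animal 3 and the other OSe calves above every Mix calf, and a change of -0.59 ± 0.20; near-identical copies of this gene exist, and its probe set may read more than 1. The co-chaperone DNAJB4 was at -0.38 ± 0.15 and HSF1, the transcription factor of the heat shock response, at 0.29 ± 0.12, both without overlap between Mix and OSe. Over the list 13 of 32 members were above 0, with a median of -0.024, or 0.0042 after quantile normalization and -0.051 to 0.035 with 1 calf left out. ACVR1, a receptor for bone morphogenetic proteins and activins, measured 9.77, 9.84, 9.86 and 9.81 in Mix calves, against 9.95, 10.24, 9.98 and 10.01 in OSe calves, a change of -0.23 ± 0.08 without overlap. BMP7, a ligand of that family, was at 0.32 ± 0.14 and TGFB3 at -0.46 ± 0.20. Insulin-like growth factors IGF1 and IGF2 were at 0.053 ± 0.25 and 0.012 ± 0.08, and 18 of 40 members of the growth factor list were above 0.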
